A study of Mus musculus with 8 samples.

Results

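The genes described here encode the metalloproteinases that cut the extracellular matrix and the tissue inhibitors that hold them in check. They were taken as every protein-coding gene of the table whose symbol is Mmp, Timp, Adamts or Adamtsl followed by a number, which gave 50 of the 55933 genes in the table: 22 matrix metalloproteinases (Mmp), 4 tissue inhibitors of metalloproteinases (Timp), 19 secreted proteases with thrombospondin repeats (Adamts) and 5 Adamtsl genes, whose products resemble Adamts proteins but lack the protease domain. RNA was sequenced from mammary epithelium of female C57BL/6 mice at pregnancy day 14.5, in 4 control and 4 Bmpr1a conditional knockout (cKO) libraries, 1 per mouse. The cKO genotype was K14-rtTA;teto-Cre;Bmpr1a fl/fl, in which doxycycline in the drinking water, given until collection, switches on Cre under the keratin 14 promoter of myoepithelial cells. Controls were littermates that the sample labels call wild type, and their exact genotype at the transgenes and the floxed gene is not stated in the sources used here. The preparation, released with collagenase and hyaluronidase, was not sorted by cell layer, so a value in FPKM (fragments per kilobase, adjusted for depth) averages over every cell in it. Between 16123108 and 19896988 reads lay on genes in each library.

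Mmp enzymes are made as inactive precursors, need zinc, and together can cut nearly every protein of the matrix, while Timp proteins plug their active sites. Adamts enzymes are more selective: some cut the large proteoglycans, some trim procollagen, and several act on microfibrils. In the mammary gland these proteases are known for ductal branching, for making room for alveoli in pregnancy and for the breakdown of basement membrane after weaning.

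Bmpr1a, the targeted gene, had FPKM of 10.6, 11.7, 8.74 and 9.52 in control replicates 1 to 4. In the libraries labelled cKO, in the same order, it had 12.0, 12.0, 10.2 and 10.4. The groups overlapped (p = 0.257 by exact permutation of the 8 labels). The label cKO therefore did not come with less Bmpr1a RNA, and each direction given for the libraries labelled cKO rests on the labels. The file holds 1 value for the whole gene and does not show whether the floxed part is missing from the transcripts. Cre was switched on in myoepithelial cells, while each value averages over luminal and other cells too. A loss limited to the myoepithelial layer therefore cannot be read from these values.

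The libraries held the RNA of both epithelial layers and of other cells. Summed FPKM of 5 luminal markers was between 4367 and 5670.0 in the 8 libraries, with Krt8 the most abundant. Summed FPKM of 7 myoepithelial markers was between 1713 and 2574, led by Acta2. Fibroblast, pericyte, endothelial and macrophage markers were all present at lower levels and are given beside the genes they move with. In such bulk libraries, fewer cells of a type and less RNA per cell cannot be told apart.

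Levels among the 50 genes spanned from nearly nothing to over 100 FPKM. Mmp3, stromelysin-1, had the highest mean over the 8 libraries at 161 FPKM, followed by Adamts1 at 83.8, Timp1 at 72.1, Mmp2 at 60.7, Adamts4 at 60.0 and Timp2 at 59.6. These 6 genes made up 76.6% of the summed mean FPKM of the 50. A mean of at least 0.5 FPKM, needed for the test across genes, was reached by 33 of the 50, and the other 17 had at most 62 reads in a library. Of the 33, the group mean of Adamts17 alone lay under 0.5 in one group, the libraries labelled cKO.

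Timp1, the inhibitor, was the 1 of the 33 tested genes that passed limma's test at an adjusted p under 0.05, and it fell in the libraries labelled cKO. Over all 15143 genes tested, 0.892% passed. At an unadjusted p under 0.05, the threshold that the study states without naming an adjustment, 13 of the 33 were called, where 16.4% of all genes were. Of the 13, 11 were lower in the libraries labelled cKO, a direction in which 7.53% of all genes were called, and 2, Mmp9 and Mmp15, were higher, against 8.85% of all genes. The 11 lower genes were Timp1, Mmp13, Mmp25, the proteoglycan-cutting enzymes Adamts1, Adamts4, Adamts8 and Adamts9, and Adamts3, Adamts10, Adamts17 and Adamts18. For 5 of the 33 every library labelled cKO lay below every control library, which held for 4.6% of all genes, and for 1, Mmp9, every one lay above, which held for 6.1%. The median log2 difference (cKO minus control, of FPKM + 1) was -0.19 over the 33 and 0.00 over all genes tested, and 26 of the 33 were below 0. Scaled to the same sum of FPKM in every library, 12 of the 33 were called lower and 1 higher, and the split over all genes moved from 1140 lower and 1340 higher to 1656 lower and 788 higher. Of the 13, 7 kept an unadjusted p under 0.05 in every alternative that tested them (Timp1, Mmp9, Mmp13, Adamts3, Adamts10, Adamts17 and Adamts18). Without cKO replicate 4 the 13 became 8, and without control replicate 4 no gene of the table passed at an adjusted p, with 2134 at an unadjusted p under 0.05. The 8 fits that leave out 1 library gave between 0 and 78 genes at an adjusted p under 0.05, in place of 135.

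**Figure D1:**
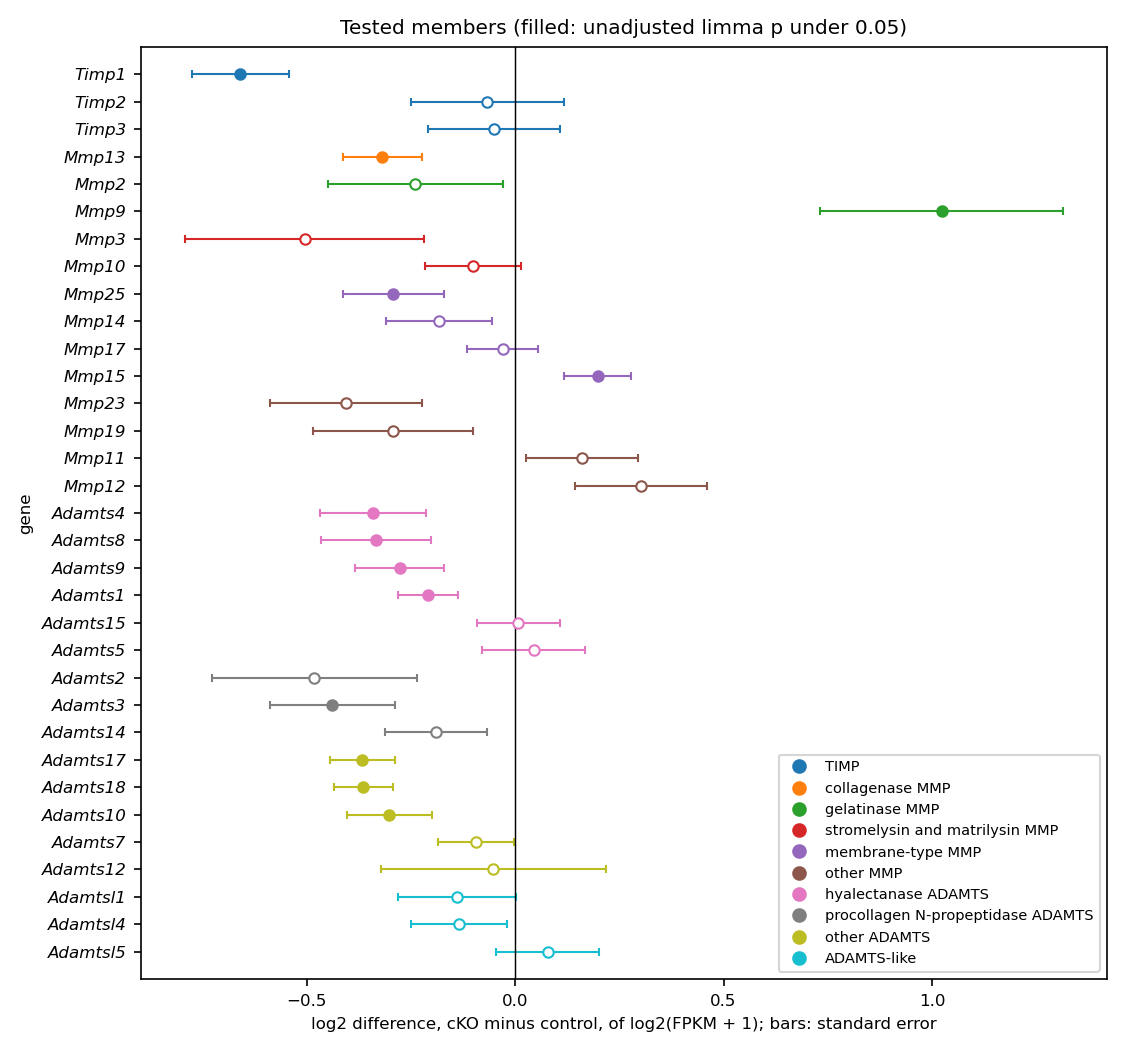
Log2 difference, cKO minus control, of log2(FPKM + 1) for the 33 tested genes, by class, with the standard error as bars and filled points for an unadjusted limma p under 0.05. Timp1 has the lowest value at -0.66 and Mmp9 the highest at 1.02, and 26 of the 33 points lie left of 0.

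Timp1 encodes a secreted inhibitor that binds most soluble Mmp enzymes and, in its best known pairing, the Mmp9 precursor. Control replicates 1 to 4 held 77.3, 81.2, 95.3 and 100.4 FPKM of it. The libraries labelled cKO held 62.3, 54.4, 59.9 and 46.3. The lowest control library was still above the highest library labelled cKO, and the distance was wider in replicates 3 and 4, with a log2 difference of -0.88, than in replicates 1 and 2, with -0.44. The means (± SD, n = 4) were 88.6 ± 11.0 for control and 55.7 ± 7.09 for cKO. On the log2 scale the difference was -0.66 with a standard error of 0.12 (limma, adjusted p = 0.0461). The call was close to the threshold. Limma's adjusted p was 0.103 with no filter on low values, 0.0518 without trend and 0.0788 with replicate number as a block. It ranged from 0.0197 to 0.123 over the 18 alternatives. It was 0.0752, 0.0933, 0.116 and 0.123 in limma without control replicate 1, 2, 3 or 4. Without cKO replicate 1, 2, 3 or 4 it was 0.0576, 0.105, 0.0581 and 0.0942. The difference was below 0 in each of these fits. Timp1 lies on chromosome X of GRCm38 from 20870166 to 20874735, inside Syn1 on the other strand, with no exon in common, and had between 764 and 1673 reads per library.

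Timp2, which besides inhibition helps Mmp14 to activate the Mmp2 precursor, had 54.4, 62.0, 49.8 and 76.8 FPKM in the control libraries. It had 75.6, 51.2, 43.7 and 63.2 in the libraries labelled cKO, so the groups overlapped over almost their whole range. Timp3, the inhibitor that stays bound to the matrix and also blocks Adamts and Adam enzymes, had 11.9, 13.2, 7.86 and 10.4 FPKM in control libraries and 12.0, 10.8, 8.14 and 10.5 in cKO libraries. In both genotypes replicate 3 was its lowest library. The log2 difference was -0.07 for Timp2 and -0.05 for Timp3, with standard errors of 0.18 and 0.16. Timp4 was under the filter, at 0.284, 0.137, 0.314 and 0.316 FPKM in control and 0.255, 0.247, 0.310 and 0.329 in cKO libraries (p = 0.800 by exact permutation). Timp3 and Timp4 also lie inside synapsin genes, Syn3 and Syn2, whose exons overlap theirs on the other strand. No library had over 35 reads on Syn3 or over 34 on Syn2, while Timp3 never had under 1053 and Timp4 never under 14, so that the value of Timp4 is uncertain. Because Timp2 and Timp3 differed little, the 4 Timp genes summed to 160.4 ± 19.1 FPKM (± SD, n = 4) for control and 125 ± 17.2 for cKO, and most of the gap was that of Timp1.

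Among the collagenases, which cut the triple helix of fibrillar collagen, Mmp13 was the one detected at a high level. It had 22.6, 24.4, 22.6 and 22.4 FPKM in the control libraries. It had 19.5, 19.1, 20.02 and 14.8 in the libraries labelled cKO. Every one of these lay below every control library, with cKO replicate 4 the lowest by far. The log2 difference was -0.32 with a standard error of 0.09, short of the adjusted threshold (limma, adjusted p = 0.149). Mmp8, the collagenase of neutrophils, had 0.0476, 0, 0.0246 and 0 FPKM in control and 0.0214, 0.0750, 0 and 0.0888 in cKO libraries. Mmp1b was listed above 0 in control replicate 2, at 0.0398, and in cKO replicate 1, at 0.0715, and at 0 in the other 6 libraries. These values stand for at most 4 and 2 reads, too few to compare.

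The 2 gelatinases, which cut denatured collagen and the type IV collagen of basement membranes, had log2 differences of opposite sign. Mmp9 had 1.48, 2.77, 3.76 and 2.98 FPKM in the control libraries. It had 3.996, 8.79, 4.59 and 10.1 in the libraries labelled cKO. All 4 were above every control library, but replicates 1 and 3 only just, while replicates 2 and 4 were more than 2 times the highest control. Group means (± SD, n = 4) were 2.75 ± 0.945 and 6.87 ± 3.03 FPKM, a ratio of 2.50. The log2 difference of 1.02 had a standard error of 0.29 and was the highest of the 33, without passing the adjusted threshold (limma, adjusted p = 0.137, between 0.0210 and 0.281 over the 18 alternatives). It was 1.19 in replicates 1 and 2 and 0.85 in replicates 3 and 4. Mmp2, made mainly by stromal cells, had 53.9, 70.1, 53.0 and 85.3 FPKM in control libraries. In cKO libraries it had 77.7, 46.0, 43.0 and 56.5. Control replicates 2 and 4 and cKO replicate 1 were high and the other 5 libraries lower, so the groups overlapped and the log2 difference of -0.24 was close to its standard error of 0.21.

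Since neutrophils and macrophages are known sources of Mmp9, their markers are set beside it. Of 5 neutrophil markers, the defining genes Ly6g, Mpo and Elane were near 0, with Ly6g at 0 in 7 of the 8 libraries. The summed FPKM of the 5 was 187, 180.0, 176 and 159 in control and 208, 168, 234 and 221 in cKO libraries, nearly all of it S100a8, the most abundant. S100a8 had 169, 167, 164 and 145 FPKM in control and 201, 159.9, 221 and 212 in cKO libraries. Its partner S100a9 had 17.5, 13.1, 11.5 and 13.3 in control and 6.85, 8.25, 12.7 and 9.18 in cKO libraries. By limma, S100a8 was higher and S100a9 lower at an unadjusted p under 0.05 (adjusted p = 0.237 and 0.173). The library with the lowest S100a8 level of its group, cKO replicate 2, had the second highest Mmp9. All 4 macrophage markers had a log2 difference below 0, and their summed FPKM was 35.8, 26.0, 31.5 and 31.4 in control and 27.3, 28.3, 19.5 and 30.2 in cKO libraries. Cd68 was the most abundant of them, and Adgre1 (F4/80) had the smallest p, with 4.99, 3.74, 3.58 and 4.16 FPKM in control and 3.36, 3.07, 2.08 and 2.98 in cKO libraries. The part of neutrophils and macrophages in the Mmp9 values was not tested.

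**Figure D2:**
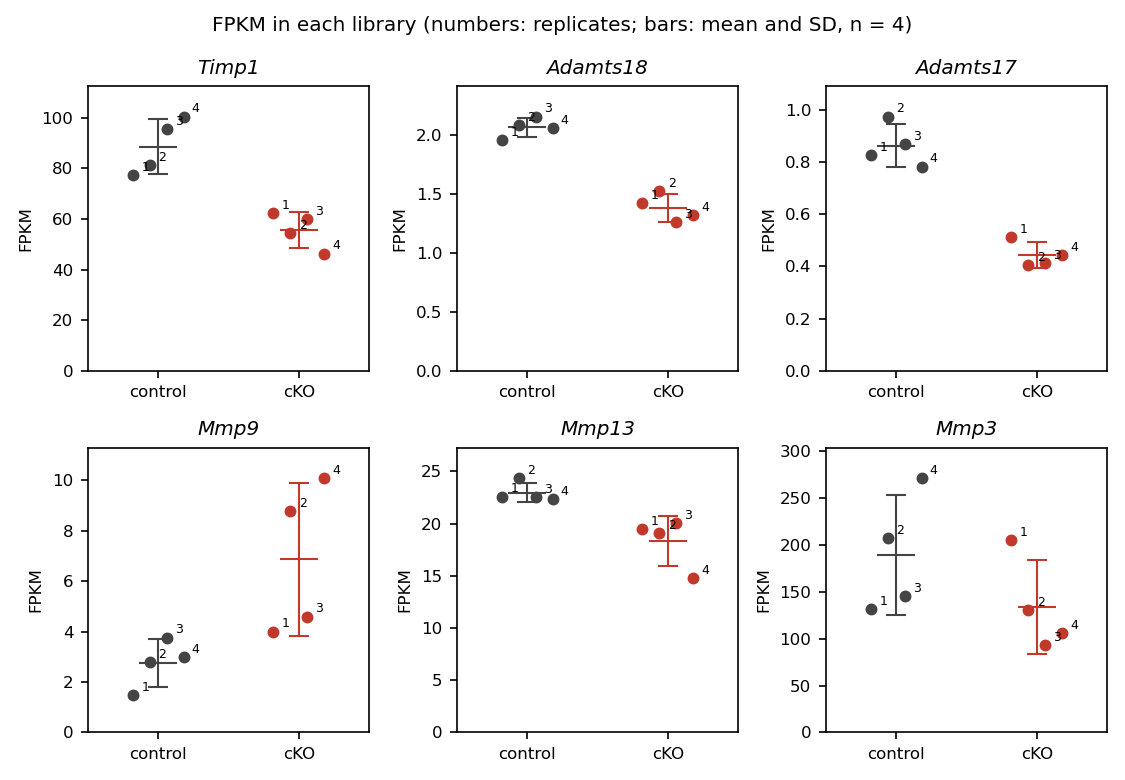
FPKM of 6 genes in each of the 8 libraries, with the replicate number at each point and the mean and SD of each group (n = 4). The groups are apart for Timp1, Adamts18, Adamts17, Mmp9 and Mmp13, and overlap for Mmp3, whose values run from 93.1 to 271 FPKM.

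Stromelysins cut many matrix proteins and activate other Mmp precursors. Mmp3 had 132, 207, 145 and 271 FPKM in the control libraries. It had 205, 130.0, 93.1 and 106 in the libraries labelled cKO. The spread within each group was as wide as the distance between the groups. The log2 difference was -0.02 in replicates 1 and 2 and -0.99 in replicates 3 and 4, and -0.50 with a standard error of 0.29 over all 8 libraries (limma, adjusted p = 0.429). Without cKO replicate 1, the 1 high library of its group, it was -0.73, with an unadjusted limma p of 0.0193. Mmp10, its close relative, was low, at 0.402, 0.570, 0.728 and 0.774 FPKM in control and 0.722, 0.422, 0.549 and 0.344 in cKO libraries. Mmp7, the matrilysin of glandular epithelia, was lower still and under the filter. It had 0.378, 0.378, 0.112 and 0.299 FPKM in the control libraries, and 0.388, 0.511, 0.649 and 0.504 in the libraries labelled cKO. All 4 of the latter were above the former, by a margin in replicate 1 that is less than 1 read (p = 0.0286 by exact permutation, which no split of 4 against 4 can go below, in 1 of the 17 genes under the filter). The values stand for between 2 and 11 reads per library, and after scaling to the same sum of FPKM the gene no longer had a permutation p under 0.05. Nor had it one without control replicate 1, 2, 3 or 4 or cKO replicate 3. Leaving out a library cannot make these groups overlap. With unequal groups the permutation p also depends on whether a split in the other direction has as wide a gap in means.

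Membrane-type enzymes sit at the cell surface. Mmp14, the activator of the Mmp2 precursor, had 25.3, 31.5, 28.2 and 37.8 FPKM in control and 31.3, 24.4, 24.9 and 26.4 in cKO libraries. The groups overlapped, with cKO replicate 1 among the controls. Mmp15 (MT2-MMP), known from epithelial cells, had 9.69, 10.3, 9.73 and 10.2 FPKM in control libraries. It had 11.3, 10.3, 11.5 and 13.5 in the libraries labelled cKO, where replicate 2 was level with the controls and the other 3 were above them. The log2 difference was 0.20 with a standard error of 0.08 (limma, adjusted p = 0.260). The unadjusted limma p of Mmp15 was 0.0350, and 0.0977 after scaling to the same sum of FPKM. It was between 0.0502 and 0.0797 without control replicate 1, 3 or 4 or cKO replicate 1, 3 or 4. Mmp25 (MT6-MMP), first known from leukocytes, had 2.30, 2.81, 2.16 and 1.71 FPKM in control and 1.36, 1.85, 1.91 and 1.44 in cKO libraries. Control replicate 4 lay among the cKO values. Its log2 difference was -0.29 (limma, adjusted p = 0.274), and its unadjusted p of 0.0388 became 0.0600 to 0.108 without control replicate 1, 2 or 3 or cKO replicate 1 or 4.

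Of the 8 other Mmp genes, Mmp19, Mmp12 and Mmp23 were the most abundant. Mmp19, an enzyme of basement membrane substrates, had 10.5, 13.9, 7.99 and 14.5 FPKM in control and 11.4, 9.18, 6.95 and 9.57 in cKO libraries. Mmp12, the elastase of macrophages, had 2.47, 3.06, 4.58 and 3.71 FPKM in control and 4.56, 5.40, 3.47 and 4.38 in cKO libraries. The groups overlapped for both, and the log2 difference of Mmp12 was 0.67 in replicates 1 and 2 and -0.06 in replicates 3 and 4. Without control replicate 3 or cKO replicate 3 the unadjusted limma p of Mmp12 was 0.0200 or 0.0381, and without control replicate 3 that of Mmp19 was 0.0248. Mmp23, anchored by an amino-terminal membrane segment, had 2.37, 3.36, 2.83 and 4.76 FPKM in control and 2.97, 1.97, 1.61 and 2.42 in cKO libraries. Its log2 difference of -0.41 had an unadjusted limma p of 0.0528, which was 0.0211 without control replicate 1 and 0.0249 without cKO replicate 1. Mmp11, the last tested gene of these 8, and Mmp17 of the membrane-type enzymes had means of 0.820 and 0.791 FPKM and log2 differences of 0.16 and -0.03.

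Of the 7 enzymes that cut versican, aggrecan and related proteoglycans, 6 were tested and 4, Adamts1, Adamts4, Adamts8 and Adamts9, were lower in the libraries labelled cKO at an unadjusted p under 0.05 (7.53% of all genes). Adamts1 had 82.3, 90.6, 89.2 and 97.6 FPKM in control and 82.5, 74.7, 79.6 and 73.6 in cKO libraries. Adamts4 had 66.7, 70.2, 63.5 and 66.4 in control and 69.3, 52.6, 46.2 and 44.7 in cKO libraries. For both, cKO replicate 1 was the library that reached the control range, and for Adamts4 it was above 3 of the 4 controls. Adamts8 had 23.8, 17.9, 21.4 and 17.5 FPKM in control and 17.1, 18.8, 14.3 and 13.0 in cKO libraries. Adamts9 had 11.5, 11.1, 9.43 and 10.6 in control and 10.5, 8.75, 8.20 and 7.23 in cKO libraries. Here cKO replicate 2 of Adamts8 and cKO replicate 1 of Adamts9 lay among the controls. The log2 differences were -0.21, -0.34, -0.33 and -0.28 in the order named, with standard errors of 0.07, 0.13, 0.13 and 0.11, and none passed after adjustment (limma, adjusted p = 0.198, 0.232, 0.256 and 0.244). The unadjusted limma p became 0.0534 for Adamts1 without control replicate 4, and 0.0600, 0.0706 and 0.0729 for Adamts4 without control replicate 2, cKO replicate 3 and cKO replicate 4. For Adamts8 it became 0.0761 to 0.0928 without control replicate 1 or 3 or cKO replicate 3 or 4, and for Adamts9 0.0534 to 0.0776 without control replicate 1, 2 or 4 or cKO replicate 3 or 4. The other 2 tested genes of the class, Adamts5 and Adamts15, had log2 differences of 0.04 and 0.01. Summed over its 7 genes, the class had 189, 195, 188 and 198 FPKM in control and 184, 159.9, 153 and 144 in cKO libraries, so that even cKO replicate 1 lay under the lowest control.

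The procollagen N-propeptidases Adamts2, Adamts3 and Adamts14 remove the amino-terminal propeptide so that fibrillar collagen can assemble. Adamts3, which also processes the lymphatic growth factor Vegfc, had 3.16, 3.06, 2.13 and 1.91 FPKM in control libraries. It had 2.06, 1.79, 1.21 and 1.43 in the libraries labelled cKO. Replicates 3 and 4 were lower than 1 and 2 in both groups, and within each of these sets the cKO libraries were below the controls. The log2 difference was -0.44 with a standard error of 0.15 (limma, adjusted p = 0.195), and with replicates 1 and 2 against 3 and 4 as a block limma's adjusted p was 0.0283, within a range of 0.0223 to 0.368 over the 18 alternatives. Adamts2 had 3.33, 4.79, 3.29 and 6.64 FPKM in control and 4.68, 2.39, 1.82 and 2.97 in cKO libraries. Adamts14 had 0.999, 1.64, 0.896 and 1.40 in control and 1.11, 0.863, 0.775 and 1.05 in cKO libraries. Both were highest in the same 3 libraries as Mmp2, and neither was called, although Adamts2 had an unadjusted limma p of 0.0155 without cKO replicate 1.

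Of the 9 remaining Adamts genes, 5 were tested and 3 were lower at an unadjusted p under 0.05 (7.53% of all genes). Adamts18, an orphan protease linked to epithelial branching, had 1.96, 2.08, 2.15 and 2.05 FPKM in the control libraries. It had 1.42, 1.52, 1.26 and 1.32 in the libraries labelled cKO. Within each group the values lay close together, and the groups were far apart for their spread, at 2.06 ± 0.0813 and 1.38 ± 0.118 FPKM (± SD, n = 4). The log2 difference of -0.36 had a standard error of 0.07 and just missed the threshold (limma, adjusted p = 0.0568, between 0.0182 and 0.144 over the 18 alternatives). Adamts17, which acts on fibrillin microfibrils, had 0.825, 0.974, 0.869 and 0.782 FPKM in the control libraries. It had 0.514, 0.406, 0.414 and 0.444 in the libraries labelled cKO, again with no overlap. The control mean was 1.94 times the cKO mean, the highest such ratio among the called genes, but the pseudocount of 1 holds its log2 difference to -0.37 (limma, adjusted p = 0.0718, between 0.0148 and 0.159 over the 17 alternatives that test it). On reads recovered from the FPKM, limma-voom gave log2 differences of -0.94 for Adamts17 and -0.58 for Adamts18, with adjusted p of 0.0148 and 0.0182, and without trend limma's adjusted p was 0.0456 and 0.0466. With replicates 1 and 2 against 3 and 4 as a block, that of Adamts18 was 0.0369. Adamts10, which also works on fibrillin microfibrils, had 2.14, 2.02, 2.12 and 2.22 FPKM in control and 2.01, 1.20, 1.37 and 1.62 in cKO libraries. There cKO replicate 1 lay just under the lowest control (limma, log2 difference -0.30, adjusted p = 0.192).

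Adamts12 and Adamts7, which cut the cartilage protein Comp, did not separate the groups. Adamts12 had 3.03, 5.196, 1.99 and 4.601 FPKM in control and 5.18, 3.48, 1.97 and 3.41 in cKO libraries. Adamts7 had 2.09, 2.46, 2.31 and 2.37 in control and 2.52, 1.84, 1.84 and 2.22 in cKO libraries. Of the Adamts-like genes, whose products bind fibrillin and other matrix proteins, none of the 3 tested was called. Adamtsl4 had 2.06, 1.99, 1.93 and 2.75 FPKM in control and 1.99, 1.66, 1.59 and 2.37 in cKO libraries, with replicate 4 the highest of both groups. Adamtsl5 had 0.623, 0.660, 0.493 and 0.914 in control and 1.13, 0.642, 0.560 and 0.753 in cKO libraries. Adamtsl1 had 0.624, 0.846, 0.323 and 0.860 in control and 0.767, 0.404, 0.316 and 0.536 in cKO libraries. The groups overlapped for each of them.

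The 17 genes under the filter were Timp4, Mmp1b, Mmp7, Mmp8, Mmp16, Mmp20, Mmp21, Mmp24, Mmp27, Mmp28, Adamts6, Adamts13, Adamts16, Adamts19, Adamts20, Adamtsl2 and Adamtsl3, and of these Mmp7 was the one with a permutation p under 0.05. Their mean FPKM ran from 0.00205 for Mmp20, the enamel protease, to 0.490 for Mmp28, and 3 of them, Mmp1b, Mmp20 and Mmp21, had at most 10 reads over all 8 libraries together. For genes with so few reads the group means say little.

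A second pattern crossed the groups. The 6 fibroblast markers had a summed FPKM of 441, 773, 445 and 919.7 in control and 713, 433, 299 and 519.8 in cKO libraries, so control replicates 4 and 2 and cKO replicate 1 were the 3 highest and cKO replicate 3 the lowest. Col3a1 was the most abundant of the 6, Col1a1 had the smallest p, and none of the 6 was called at an unadjusted p under 0.05, although all 6 had a log2 difference below 0. The same 3 libraries held the 3 highest values for 10 of the 33 tested genes, which is the case for 2.19% of all genes tested, a pattern chosen after the values were seen. These 10 were Mmp2, Mmp3, Mmp14, Mmp19, Mmp23, Adamts2, Adamts7, Adamts12, Adamts14 and Adamtsl1, of which Mmp2, Mmp3 and Mmp14 are textbook stromal products. None of the 10 was among the 13 genes called at an unadjusted p under 0.05. The pattern puts a library labelled cKO among the 3 highest, so it cannot occur in a gene whose groups do not overlap. The part of fibroblast RNA in the values of the 10 genes was not tested.

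Of the vessel markers, 1 of 4 endothelial and 0 of 3 tested pericyte genes had an unadjusted limma p under 0.05 (16.4% of all genes), and none an adjusted one (0.892%). The 4 endothelial markers summed to 70.8, 67.4, 66.3 and 61.9 FPKM in control and 69.1, 56.5, 44.7 and 56.1 in cKO libraries. Cdh5 was the most abundant, Pecam1 had the smallest p (limma, adjusted p = 0.262), and all 4 log2 differences were below 0. The 4 pericyte markers, led by Rgs5, summed to 32.6, 45.8, 31.6 and 37.6 in control and 41.2, 28.8, 20.4 and 29.9 in cKO libraries. In both lists cKO replicate 1 was the highest of its group, above 3 of the 4 controls. Among the protease and inhibitor genes called lower, it was also the highest library of its group for Timp1, Adamts1, Adamts3, Adamts4, Adamts9, Adamts10 and Adamts17. For Mmp13, Mmp25, Adamts8 and Adamts18, also called lower, it was not the highest. How often this holds over all genes was not counted. The part of vessel cells in the genes called lower was not tested. Adipocyte markers summed to 89.4, 77.2, 119 and 103 in control and 97.4, 116, 129 and 109.9 in cKO libraries, nearly all Fabp4. Adipoq, Plin1 and Lep were low, with means over all libraries of 0.775, 0.144 and 0.0810 FPKM. The digestion was meant to take fat away, and which cells the Fabp4 RNA came from was not tested. Adipoq, with the smaller limma p of the 2 tested, had 0.750, 1.98, 0.274 and 1.99 in cKO libraries. Adipoq was thus high in cKO replicates 2 and 4, the same 2 libraries in which Mmp9 was high, and its control values were 0.334, 0.0836, 0.562 and 0.231. Lep, under the filter, had 0, 0.0344, 0 and 0.0635 FPKM in control and 0.0772, 0.108, 0.188 and 0.177 in cKO libraries, with no overlap (p = 0.0286 by exact permutation, the smallest possible). The part of adipocytes in Mmp9 was not tested.

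In the markers of the epithelium itself, Elf5, a luminal transcription factor, had the smallest p of its list, with 18.1, 17.8, 24.7 and 24.7 FPKM in control and 31.9, 33.7, 38.8 and 49.8 in cKO libraries. Oxtr, the oxytocin receptor, had the smallest p among the myoepithelial markers, with 2.14, 2.82, 2.64 and 2.86 in control and 4.36, 7.01, 3.996 and 7.24 in cKO libraries. Its 2 highest libraries, cKO replicates 2 and 4, were again those of Mmp9. Of the 7 myoepithelial markers, 1 was higher and 2, Krt14 and Trp63, were lower at an unadjusted limma p under 0.05, against 8.85% and 7.53% of all genes. Krt14 had 679.8, 665, 816 and 849.7 FPKM in control and 512, 490.1, 666 and 641 in cKO libraries, where replicate 3 reached the control range. Trp63 had 3.47, 4.42, 3.18 and 3.25 in control and 2.90, 2.998, 1.81 and 2.07 in cKO libraries, with no overlap. Their log2 differences were -0.39 and -0.42 (limma, adjusted p = 0.209 and 0.181), and the part of myoepithelial cells in the lower protease genes was not tested. Neither Elf5 nor Oxtr passed the adjusted threshold (limma, adjusted p = 0.0591 for Elf5 and 0.0644 for Oxtr).

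Genes that respond to tissue digestion, which encode AP-1 and related factors and heat shock proteins, had their highest sum in cKO replicate 4. The 6 summed to 761, 590.5, 635 and 593 FPKM in control and 786, 649, 606 and 1470.0 in cKO libraries, led by Hspa1b. Hspa1a, with the smallest p of this list, had 74.5, 49.9, 50.6 and 33.2 in control and 73.7, 90.4, 65.5 and 284 in cKO libraries. Fos had 55.4, 60.1, 65.6 and 64.8 in control and 119.97, 61.7, 52.3 and 127 in cKO libraries, so it was high in cKO replicates 1 and 4. Egr1, at 33.4, 36.1, 35.5 and 44.4 in control and 73.0, 34.6, 29.2 and 75.9 in cKO libraries, was high in the same 2. In cKO replicate 4 Mmp9 and Mmp15 were at their highest and Timp1, Mmp13, Adamts1, Adamts4, Adamts8 and Adamts9 were at their lowest. For Mmp25, Adamts3, Adamts10, Adamts17 and Adamts18, also called lower, another library held the lowest value. How often this holds over all genes was not counted. The part of this response in the called genes was not tested, and without cKO replicate 4 Timp1 had a log2 difference of -0.57 and Mmp9 of 0.83.

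Other enzymes switch Mmp precursors on. Of 4 proprotein convertases, which activate membrane-type Mmp and Adamts enzymes inside the cell, none passed at an adjusted p, 1 was lower (7.53% of all genes) and 1 higher (8.85%) at an unadjusted p under 0.05, and the median log2 difference was -0.02. Furin was the most abundant, with 25.9, 23.9, 27.1 and 25.2 FPKM in control and 25.1, 20.3, 22.6 and 23.6 in cKO libraries, and Pcsk5, with the smallest p, had 1.77, 1.42, 1.83 and 1.69 in control and 1.47, 1.29, 1.03 and 1.36 in cKO libraries. Of 8 genes of the plasminogen system, which activates Mmp precursors outside the cell, 6 were tested and 3 were lower at an unadjusted p under 0.05 (7.53% of all genes). Plau, the urokinase activator, had 92.1, 112, 129 and 119.6 FPKM in control libraries. It had 83.1, 75.0, 80.4 and 74.6 in the libraries labelled cKO, all below the controls (limma, log2 difference -0.52, adjusted p = 0.0610). Its receptor Plaur, the most abundant of the 8, overlapped between groups, with 109, 90.1, 155 and 133 FPKM in control and 88.9, 75.1, 132 and 102 in cKO libraries. Of 7 other inhibitors, inducers and clearance receptors, 6 were tested and 1 was lower at an unadjusted p under 0.05 (7.53% of all genes). That gene was Thbs1, which binds Mmp2 and Mmp9 and carries them to clearance, with 359, 336, 329.8 and 349 FPKM in control and 328, 216, 272 and 281 in cKO libraries. It did not pass the adjusted threshold (limma, adjusted p = 0.213), though cKO replicate 1 lay only just under the lowest control.

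Related protease families were looked at in the same way. Of 9 Adam sheddases, 7 were tested, 1 was higher at an unadjusted p under 0.05 (8.85% of all genes) and the median log2 difference was -0.01. Adam10 was the most abundant, with 23.3, 23.5, 20.1 and 20.9 FPKM in control and 24.7, 24.7, 22.6 and 20.3 in cKO libraries. Adam9 had 23.6, 20.7, 20.3 and 19.7 in control and 23.8, 23.6, 23.8 and 24.2 in cKO libraries, a shift as small as 0.17 on the log2 scale. Of 5 astacin procollagen C-proteinases and their enhancers, 4 were tested and 1 was lower at an unadjusted p under 0.05 (7.53% of all genes), Pcolce, which had 8.54, 10.2, 8.27 and 14.9 FPKM in control and 9.07, 5.65, 3.31 and 7.96 in cKO libraries. Bmp1, the main C-proteinase and the most abundant of the 5, had 8.99, 10.6, 10.5 and 12.7 in control and 10.9, 9.34, 8.26 and 9.49 in cKO libraries. Of 5 cathepsins, the proteases of lysosomes, 1 was higher (8.85% of all genes) and 1 lower (7.53%) at an unadjusted p under 0.05. Ctsb, the most abundant, had 146, 132, 155 and 159 FPKM in control and 176, 167, 155 and 194 in cKO libraries, and Ctss, with the smallest p, 66.3, 53.3, 49.0 and 50.5 in control and 50.9, 41.6, 35.8 and 46.9 in cKO libraries.

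Of 15 genes that encode matrix substrates of these enzymes, 12 were tested, 5 were lower at an unadjusted p under 0.05 (7.53% of all genes) and none higher, and 2 fell at an adjusted p under 0.05 (0.892% of all genes, either direction). Eln, elastin, had 34.8, 31.4, 28.4 and 34.6 FPKM in the control libraries. It had 21.2, 13.3, 12.9 and 15.1 in the libraries labelled cKO, all below the controls, with replicate 1 the highest of its group (limma, log2 difference -1.02, adjusted p = 0.0268, between 0.00240 and 0.0880 over the 18 alternatives). Limma's adjusted p for Eln was 0.0794 with no filter on low values, 0.0731, 0.0796, 0.0579 and 0.0880 without control replicate 1, 2, 3 or 4, and 0.0578 and 0.0737 without cKO replicate 2 or 4. Fbn2, the fibrillin of growing microfibrils, had 2.71, 2.69, 2.31 and 2.95 in control and 1.40, 1.49, 1.42 and 0.860 in cKO libraries (limma, log2 difference -0.68, adjusted p = 0.0339, between 0.0114 and 0.105 over the 18 alternatives). Limma's adjusted p for Fbn2 was 0.0917 with no filter and 0.0724 with replicate number as a block. It was 0.0947, 0.0933, 0.0665 and 0.105 without control replicate 1, 2, 3 or 4. Without cKO replicate 1, 2, 3 or 4 it was 0.0579, 0.0578, 0.0561 and 0.0629. Col4a1, the basement membrane collagen and the most abundant of the 15, had 232, 256, 219 and 229 FPKM in control and 209, 179, 177 and 177 in cKO libraries, with no overlap (limma, adjusted p = 0.101).

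Of the 22 Mmp genes, 9 lie together on chromosome 9 of GRCm38, from 7272514 to 7699585. In order they are Mmp13, Mmp12, Mmp1b, Mmp3, Mmp10, Mmp8, Mmp27, Mmp20 and Mmp7. Within these 427 kb the mean over the 8 libraries went from 0.00205 FPKM for Mmp20 to 161 for Mmp3, and neighbours differed widely, as Mmp10, the next gene after Mmp3, had 0.564 FPKM. Among the 4 tested genes of the cluster, Mmp13, Mmp3 and Mmp10 had log2 differences below 0 and Mmp12 above 0. Mmp12 and Mmp1b overlap in exons on opposite strands, and with no strand-specific counting stated, reads of the overlap could not be assigned. Adamts1 and Adamts5 lie side by side on chromosome 16 and Adamts15 and Adamts8 on chromosome 9, each pair with 1 called and 1 uncalled gene.

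**Figure D3:**
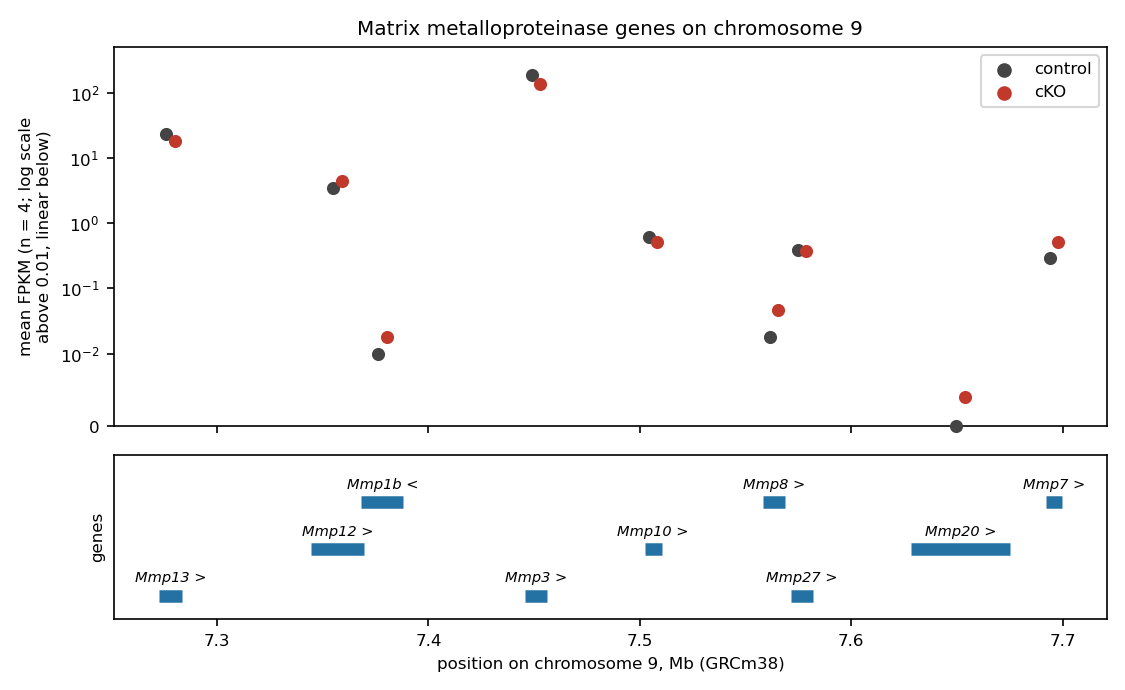
Mean FPKM of the 9 matrix metalloproteinase genes on chromosome 9 in 4 control and 4 cKO libraries (log axis above 0.01, linear below), over a map of the genes in Mb, with arrows for the strand. Mmp3 stands at 161 FPKM over all libraries and Mmp13 at 20.6, while Mmp1b, Mmp8 and Mmp20 stay under 0.1.

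RefSeq promoters (GRCm38.p6, 250 bases before to 50 after the start) were found for 35 of the 50 genes, 38 promoters in all. They were searched for TGANTCA, with any base at N, a looser pattern than the TGAGTCA and TGACTCA known from AP-1 binding in Mmp promoters. TGANTCA reads the same on both strands. Of the 38, 7 held it, all in the chromosome 9 cluster, where 7 of 11 promoters did and no other promoter of the 50 genes did, and 7.81% of the 32851 promoters in the table did. The 7 genes spanned the whole range of levels, from Mmp3 to Mmp20. The match in Mmp20, TGAATCA, is neither TGAGTCA nor TGACTCA, and all counts are for the looser pattern. A match is a description of the letters only. The 47 bases around each match before the start are shown, 5′ to 3′ on the gene's strand, with the matched letters in capitals.
Mmp13: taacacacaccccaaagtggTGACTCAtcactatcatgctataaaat
Mmp12: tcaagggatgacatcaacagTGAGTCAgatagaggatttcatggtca
Mmp1b: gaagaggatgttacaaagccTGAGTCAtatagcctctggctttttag
Mmp3: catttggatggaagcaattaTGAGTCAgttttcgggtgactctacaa
Mmp10: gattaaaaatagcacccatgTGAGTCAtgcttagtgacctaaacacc
Mmp20: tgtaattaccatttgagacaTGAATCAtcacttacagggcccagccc
Mmp7: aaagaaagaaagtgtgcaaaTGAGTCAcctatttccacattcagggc
They lie at chr9:7272459-7272505 on the plus strand for Mmp13, chr9:7347310-7347356 plus for Mmp12, chr9:7388093-7388139 minus for Mmp1b, chr9:7445756-7445802 plus for Mmp3, chr9:7502259-7502305 plus for Mmp10, chr9:7628116-7628162 plus for Mmp20 and chr9:7692007-7692053 plus for Mmp7. Timp1 held no match in the window, and for Mmp9, Adamts4, Adamts8 and Adamts10 the table has no promoter.

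Some values are uncertain because exons of another gene overlap on the opposite strand, and how strands were counted is not stated. Adamts7 overlaps Tbc1d2b, which reached 689 reads where Adamts7 had 184 or more. Mmp11 overlaps Chchd10, with up to 533 reads beside 25 or more for Mmp11. Mmp24 and Mmp28 overlap BC029722 and 1700020L24Rik. Mmp19, Adamts8 and Adamts9 overlap Tmem198b, Gm29724 and A730049H05Rik, which reached 221, 47 and 49 reads beside 390, 1049 and 1959 or more.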

How the data were processed

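The authors deposited 1 FPKM value per gene and library, computed by them before deposit, and their notes name StringTie 1.3.3b, featureCounts 1.5.0-p3 and mm9, while the paper states GRCm38 and names DESeq2 for its tests. All 50 genes carry the coordinates of GENCODE vM21 on GRCm38. FPKM multiplied by gene length and divided by 1 step per library gave whole read numbers for 100% of values (tolerance 0.01 read), with 16123108 to 19896988 reads on genes per library. Tests used limma with trend (limma 3.58.1 in R 4.3.3) on log2(FPKM + 1). The 15143 genes tested averaged 0.5 FPKM or more, and p was adjusted by Benjamini and Hochberg. Genes under this mean, and Bmpr1a, were compared by exact permutation of the 8 labels, where 0.0286 is the smallest p. As a rule, genes given by name were the called ones and the 3 most abundant of each class. In the other lists they were the most abundant gene and the one with the smallest p. Outside this rule, Krt14, Trp63, Lep, Fos and Egr1 were also given by library. Some further genes, such as Adamts5, Adamts15, Mmp11 and Mmp17, were named without a value for every library. Alternatives were a pseudocount of 0.1, no filter, a mean of at least 1, FPKM scaled to the same sum (TPM) or by median-of-ratios, blocks, no trend, limma-voom on recovered reads, and leaving out each library. The code was tested on simulated data. The genes and lists were chosen with earlier results of these data known.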

Additional observations from a re-analysis of the deposited data

Results flagged for a closer look

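In 8 of 154 groups of 4 libraries looked at, 1 library lay far from the other 3 of its group for the range they span. Chance gives about 1 in 20 such groups, or 7.7 of 154. Adamtsl4 had 2.75 FPKM in control replicate 4, above the other controls. Mmp13 had 24.4 in control replicate 2, above the other controls. Mmp1b was listed at 0.0398 in control replicate 2 and at 0.0715 in cKO replicate 1, and at 0 in the rest of each group. Col4a1 had 209 in cKO replicate 1, above the other libraries labelled cKO. Fbn2 had 0.860 in cKO replicate 4, below the others of its group. Hspa1b and Hspa1a had 574 and 284 in cKO replicate 4, above the others of its group.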

How the results depend on the processing

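The count of the 33 tested genes with an adjusted limma p under 0.05 was 1, and over all 15143 genes 135. With no filter on low values these became 0 and 10. Blocking on the 2 sets, replicates 1 and 2 against 3 and 4, they became 3 and 442, and with limma-voom on recovered reads 3 and 252. Without trend, 2 of the 33 passed. Replicate numbers were not taken as pairs: after taking out the group means, libraries of the same number correlated at 0.0797 to 0.137, not all over 0.1, and 3 of 8 correlated best with their own number. The mean was 0.111 for the same number, 0.130 within and -0.120 between the sets 1, 2 and 3, 4. With the replicate block the counts were 0 and 50, where 13 of the 33 and 3124 of all genes had an unadjusted p under 0.05, and with limma-voom and the replicate block, an alternative chosen after seeing the data, they were 5 and 680. Under the replicate block Timp1 had an adjusted limma p of 0.0788, within 0.0197 to 0.123 over its alternatives. Under the replicate block Fbn2 had an adjusted limma p of 0.0724, within 0.0114 to 0.105, and Eln one of 0.0385, within 0.00240 to 0.0880. Leaving out each library in turn gave 0 to 0 of the 33 and 0 to 78 of all genes at an adjusted p, with 0 of all genes without control replicate 4, where 2134 had an unadjusted p under 0.05. At an unadjusted p the 33 gave 8 to 14 in place of 13, with 8 without cKO replicate 4, and all genes 2047 to 2515 in place of 2480. Among Bmpr1a and the 17 protease and inhibitor genes under the filter (the other lists not counted), 1 had a permutation p under 0.05. This count was 0 with the same sum in every library (TPM), and 0 to 2 leaving out each library. Leaving out a library makes the groups unequal, which by itself changes the permutation p.

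Over 18 alternatives and 29 of the 33 tested genes, those with a value given for every library (not Adamts5, Adamts15, Mmp11 and Mmp17), 489 of 518 differences kept their direction and side of the adjusted threshold, 11 (all Timp1) went over it, 10 came under it, and 8 changed sign. The log2 difference of Adamtsl5 ran from -0.0141 (without cKO replicate 1) to 0.14 leaving out each library, and up to 0.19 over the 18 alternatives. That of Timp2 ran from -0.20 to 0.0600 and was above 0 without control replicate 4 (0.05) or cKO replicate 3 (0.0600). That of Timp3 ran from -0.18 to 0.0499 and was above 0 without control replicate 2 (0.04) or cKO replicate 3 (0.0499). That of Adamts12 ran from -0.25 to 0.13 and was above 0 without control replicate 2 (0.10), control replicate 4 (0.05) or cKO replicate 3 (0.13). None of these 4 genes was called in any setting.

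Only means over whole, unsorted preparations were available, with 4 mice a group and 1 library per mouse. The label cKO did not come with less Bmpr1a RNA, and the file cannot show the deleted part or the myoepithelial layer alone. Which cells made each transcript, protein amount and protease activity were not measured, and the cause of the differences was not tested. Pseudocount, filter, block, trend and voom do not apply to the permutation tests of single genes, and a paired permutation of 4 against 4 cannot give a p under 0.05.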
